A study of Arabidopsis thaliana with 11 samples.

Results

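Some probe sets of the embryo arrays were high in several Arabidopsis accessions and low in the others, with a wide empty interval between. These on-off probe sets were chosen by the measured values themselves. The log2 signal was averaged per accession, the 7 accession means were sorted, and a probe set was kept where the widest gap between neighbouring means was at least 2.5 log2 units with at least 2 accessions on each side. The rule kept 48 of 22746 probe sets, or 0.211%. The sides, the gaps and the groupings of accessions given here are therefore a description of what was selected, and no test was made of them. A gap of 2.5 log2 units is 5.66-fold, whereas the median widest gap over all probe sets was 0.20 log2 units.

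The samples were whole torpedo-stage embryos of 7 wild-type accessions, dissected out of maturing seeds in PBS on ice and measured on 11 ATH1 arrays. The ZLL-dependent accessions, which need the gene ZLL (AGO10) to keep shoot stem cells, were Bay-0, Ler-0 and Nw-0 with 1 array each and Fe-1 with 3 arrays. The ZLL-independent accessions were Ts-1 and Van-0 with 1 array each and Col-0 with 3 arrays. All plants are labelled wild type and no treatment is named, although Ler is known to carry the erecta mutation, which Fe-1 lacks. The labels call the 3 arrays of Fe-1 and of Col-0 biological replicates, and each pool held many embryos. They also conflict in places, since both the source name and the design call the Ler-0 array Ler-1, and the accession field of the Ts-1 array reads Tossa del Mar-0.

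Natural accessions of Arabidopsis are inbred lines that differ by single bases, by insertions and deletions, and by whole genes present in some lines and missing from others. Clusters of disease resistance genes are known for such presence and absence, because members of a cluster are copied and lost as pathogens change. A probe set on this chip is a group of short oligonucleotides drawn from the Col-0 sequence. A low signal from less RNA and a low signal from RNA that does not match the probes cannot be told apart on the array. Since whole embryos were pooled, fewer cells of a type and less RNA per cell cannot be told apart either.

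The gap between the sides ranged over the 48 probe sets from 2.54 to 5.86 log2 units, or 5.80-fold to 58.1-fold, with a median of 3.21 (9.26-fold). It lay between 2.5 and 3 in 20 probe sets, between 3 and 4 in 17 and at 4 or more in 11. The probe sets just inside the threshold were AT2G01090 at 2.54, AT1G23960 at 2.55 and AT5G44630 at 2.57. Just outside it were 259990_s_at at 2.45, ZW9 at 2.43 and AT5G53050 at 2.42. The list thus stops within a continuous run of gaps.

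The name on-off held in part. High-side means ran from 7.01 to 13.63 (median 9.28), and 44 of the 48 lay above the median of every array, which was between 7.57 and 7.71. Low-side means ran from 3.62 to 8.10 (median 5.07). In 17 probe sets every low-side array was below its own lower quartile (4.92 to 5.04), in 9 some were, and in 22 none was. The low side of those 22 probe sets is better called low than off. The clearest example is 255257_at, whose low side at 7.64 in Ts-1 and 8.57 in Ler-0 lay near and above the array medians. No high-side array was below its lower quartile. The rule nearly fixed this, because each high-side accession mean had to lie at least 2.5 log2 units above a low side whose mean was never under 3.62.

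**Figure D1:**
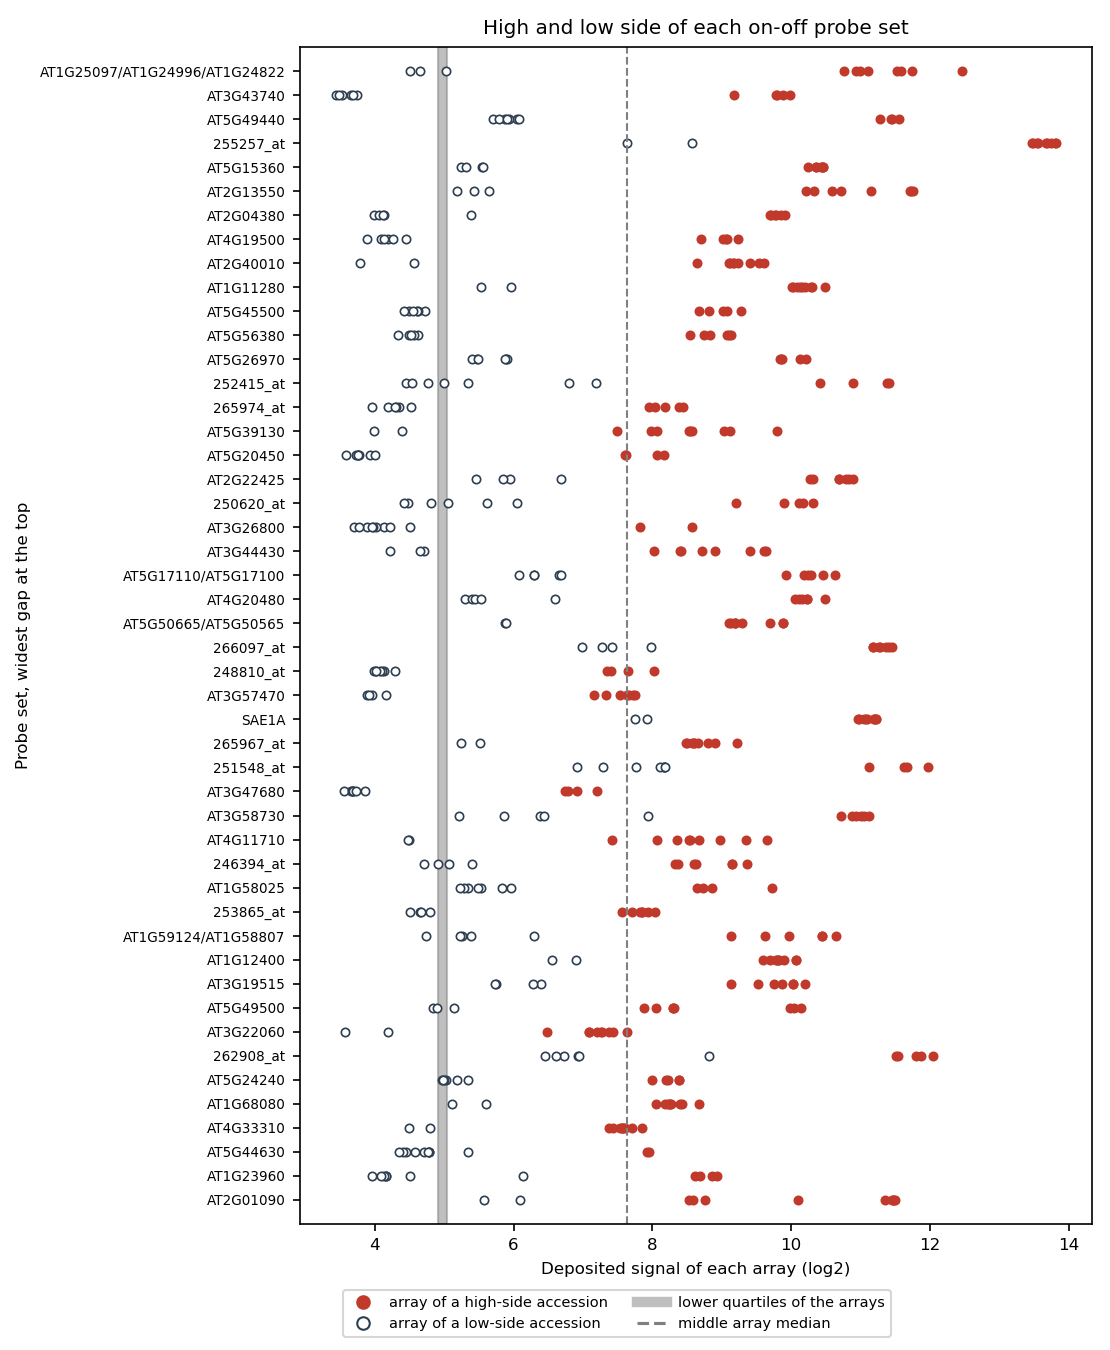
Deposited log2 signal of each array for the 48 on-off probe sets, 1 row per probe set with the widest gap at the top. Filled points are arrays of high-side accessions and open points arrays of low-side accessions, the grey band covers the lower quartiles of the arrays (4.92 to 5.04) and the dashed line the middle array median; the open points of 17 rows all lie below the lower quartile of their array, and those of 22 rows all lie above it.

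An annotation pairs 33 of the 48 with 1 gene each, 4 with several genes, and does not list 11. Over all 22746 probe sets it pairs 13513 with 1 gene and 503 with several, and does not list 8730. All 33 were found in the gene table, which classes 32 as protein coding and AT4G11710 as a pseudogene. That was 0.257% of the protein-coding and 0.108% of the pseudogene probe sets. The 33 lay on every chromosome: chromosomes 1, 2 and 4 held 5 each, chromosome 3 held 8 and chromosome 5 held 10. As a share of the probe sets with 1 gene there, that was 0.145%, 0.227%, 0.291%, 0.255% and 0.332% for chromosomes 1 to 5. Of the 48, 3 are of a type that may cross-hybridise (6.25%, against 4.66% over all probe sets).

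Col-0 stood on the high side more often than any other accession. It was high in 38 of the 48 probe sets (79.2%), and low in 10. The counts on the high side were 24 for Bay-0, 30 for Fe-1, 23 for Ler-0, 19 for Nw-0, 21 for Ts-1 and 19 for Van-0. Col-0 is also the accession on whose sequence the probes were designed. How often Col-0 stood high over all probe sets was not counted, and the part of probe design in its share was not tested. The 10 that were low in Col-0 were AT5G15360, AT5G26970, AT3G26800, AT5G44630, AT5G24240, AT1G58025, the probe set of AT5G17110 and AT5G17100, and the unlisted 253865_at, 248810_at and 251548_at.

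Accessions that shared a side were not always of the same ZLL dependency. The pair most often together was Nw-0 and Van-0, ZLL-dependent and ZLL-independent, on the same side in 30 of 48 probe sets (10 with both high, 20 with both low). Bay-0 and Nw-0 were together in 29, and Fe-1 with Ler-0 and Col-0 with Ts-1 in 27 each. The pair least often together was Ler-0 and Nw-0, both ZLL-dependent, in 18. Fe-1 and Col-0, the accessions with 3 arrays, shared a side in 24, of which 22 had both high.

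**Figure D2:**
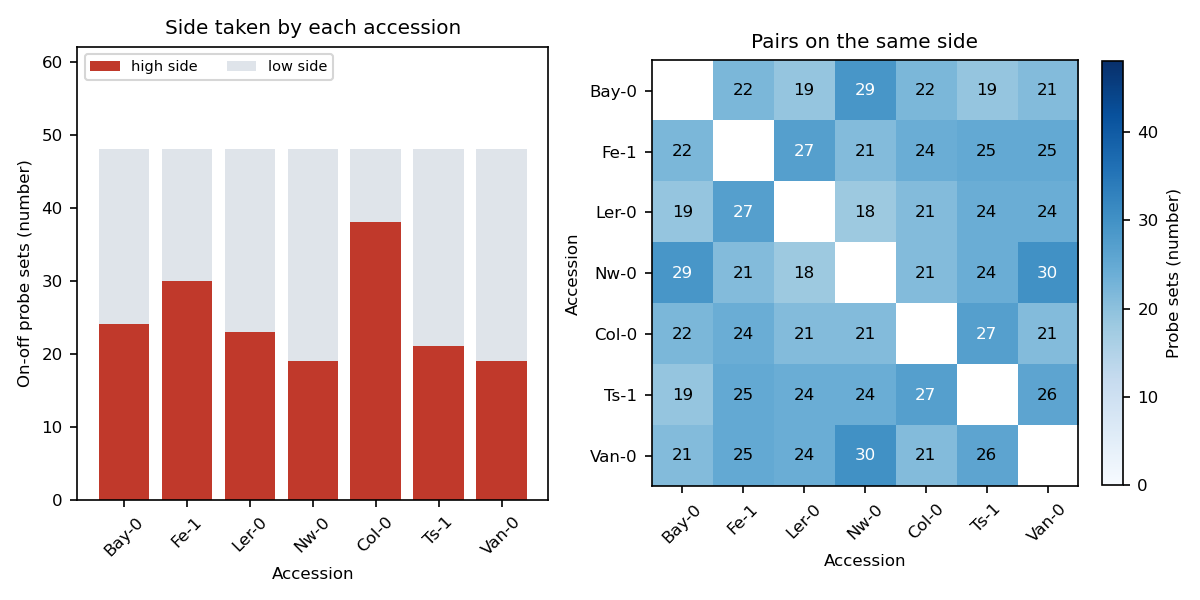
Left, number of the 48 on-off probe sets in which each accession stood on the high side (red) or the low side (grey), with ZLL-dependent accessions left of ZLL-independent ones; right, number of probe sets in which each pair of accessions stood on the same side. Col-0 has the tallest red bar at 38, and the pairs range from 18 (Ler-0 and Nw-0) to 30 (Nw-0 and Van-0).

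The 7 accessions can be parted in 56 ways with at least 2 on each side, and 30 of these groupings were found. Of the 30, 6 recurred with 3 probe sets each (18 probe sets in all), 6 had 2 and 18 had 1. The smaller side held 2 accessions in 29 probe sets and 3 in 19. In 4 of the 6 recurring groupings some probe sets were high on the smaller side and others low on it, so the same accessions stood apart in both directions.

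**Figure D3:**
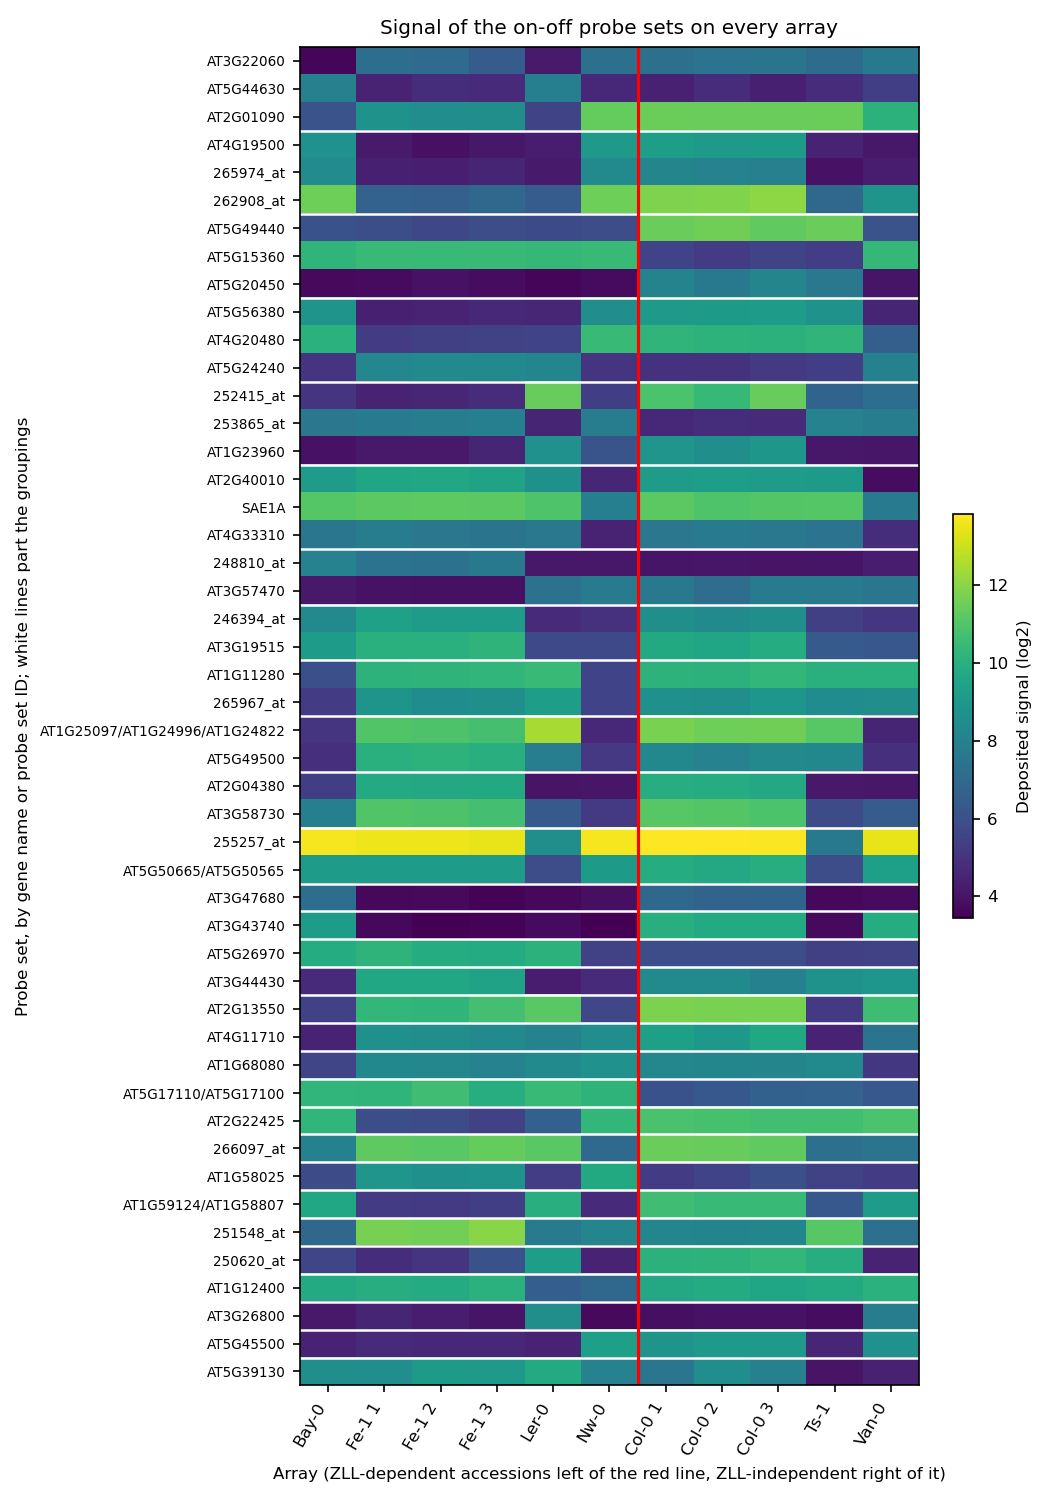
Deposited log2 signal of the 48 on-off probe sets (rows, by gene name or probe set ID) on the 11 arrays (columns), with white lines between groupings of accessions. ZLL-dependent accessions are left of the red line, and the first 6 blocks of 3 rows are the recurring groupings; AT5G17110/AT5G17100 is the row whose colour changes exactly at the line.

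Col-0 and Ts-1 stood apart from the other 5 accessions in AT5G49440, AT5G20450 and AT5G15360. AT5G49440 had 11.44, 11.56 and 11.28 in the Col-0 replicates and 11.46 in Ts-1, against 5.70 to 6.08 (median 5.90) on the 7 arrays of the other accessions. Its gap of 5.35, or 40.7-fold, was the widest of those high in only 2 accessions, and neither side held an array out of line with the rest. AT5G20450 was at 8.07, 7.63 and 8.17 in Col-0 and 7.61 in Ts-1, against 3.58 to 4.01 (median 3.76) elsewhere, all of them below the lower quartile of their array. AT5G15360 ran the other way. It was at 10.24 to 10.46 (median 10.44) on the 7 arrays of Bay-0, Fe-1, Ler-0, Nw-0 and Van-0, against 5.55, 5.24 and 5.56 in Col-0 and 5.31 in Ts-1, a gap of 4.79 or 27.7-fold. The 3 Fe-1 replicates of AT5G15360 had an SD of 0.01.

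Nw-0 and Van-0, the pair most often together, were low together in AT2G40010, SAE1A and AT4G33310. AT2G40010 encodes acidic ribosomal protein P0, part of the stalk of the large ribosomal subunit. It was at 8.65 to 9.61 (median 9.17) on the 9 arrays of the other accessions, against 4.56 in Nw-0 and 3.79 in Van-0, a gap of 4.08 or 16.9-fold. SAE1A encodes the small subunit of the enzyme that activates SUMO, a small protein tag. Its signal was 10.97 to 11.23 (median 11.10) on the high side, against 7.92 in Nw-0 and 7.75 in Van-0, a gap of 3.05 (8.27-fold). The low values of SAE1A were thus near the array median, far above its lower quartile. AT4G33310 was at 7.38 to 7.85 (median 7.56) on the high side, against 4.49 in Nw-0 and 4.80 in Van-0.

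Bay-0, Nw-0 and Col-0 were high together in AT4G19500 and in 265974_at and 262908_at, which the annotation does not list. AT4G19500 is RPP2A, a resistance protein of the TIR-NBS-LRR class that acts against downy mildew. It read 8.71 in Bay-0, 9.07 in Nw-0 and 9.24, 9.02 and 9.08 in Col-0, against 3.89 to 4.46 (median 4.16) on the 6 arrays of Fe-1, Ler-0, Ts-1 and Van-0. The gap was 4.25 or 19.1-fold, and every low array was below its lower quartile. 265974_at had 8.45 in Bay-0, 8.38 in Nw-0 and 8.18, 8.04 and 7.95 in Col-0, against 3.96 to 4.52 (median 4.30) in the others. In 262908_at the high arrays were at 11.51 in Bay-0, 11.54 in Nw-0 and 11.79, 11.87 and 12.05 in Col-0, against 6.45 to 8.82 (median 6.82) on the low arrays. Van-0, at 8.82, lay 1.87 above the next accession, so that this probe set had 3 levels.

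Fe-1, Ler-0 and Van-0 stood apart from Bay-0, Nw-0, Col-0 and Ts-1 in AT5G56380, AT4G20480 and AT5G24240. AT5G56380 encodes an F-box protein with an FBD domain, from a large family of adaptors that select proteins for breakdown. Its high arrays ran from 8.55 to 9.13 (median 8.95, 6 arrays), against 4.34, 4.49 and 4.63 in Fe-1, 4.56 in Ler-0 and 4.53 in Van-0, a gap of 3.98 (15.8-fold). AT4G20480 was at 10.06 to 10.49 (median 10.19), against 5.30, 5.41 and 5.44 in Fe-1, 5.54 in Ler-0 and 6.59 in Van-0. AT5G24240, of the phosphatidylinositol 4-kinase family, was high where the other genes of this grouping were low. It had 8.23, 8.39 and 8.38 in Fe-1, 8.20 in Ler-0 and 8.001 in Van-0, against 4.97 to 5.35 (median 5.02) on the other 6 arrays, a gap of 2.65 or 6.29-fold.

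The accessions high in AT5G24240 are also those with an array of raised seed coat marker signal. Of 9 seed coat markers 2 were measured under a gene name, BAN and DFR, enzymes of flavonoid synthesis, and neither is among the 48. The mean of this pair was 5.45, 9.14 and 7.47 in the Fe-1 replicates, 6.61 in Ler-0 and 7.52 in Van-0, against 4.998 to 6.06 on the 6 arrays of Bay-0, Nw-0, Col-0 and Ts-1. In Ler-0 only DFR was raised, at 7.97, while BAN was at 5.26, within the 4.67 to 5.95 of those 6 arrays. AT5G24240 had 8.23 in Fe-1 replicate 1, where BAN was at 5.07 and DFR at 5.84, and 8.39 in replicate 2, where they were at 8.77 and 9.51. The part of seed coat RNA in its signal was not tested. The endosperm marker AGL62, 1 of 8 on its list measured, was at 3.53 to 3.9997 on all arrays, and none of 6 embryo markers was measured under a gene name, so the embryo label itself was not checked.

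Bay-0 and Ler-0 stood apart in AT3G22060, AT2G01090 and AT5G44630. AT3G22060, a cysteine-rich secretory protein, was at 6.48 to 7.64 (median 7.26) on the 9 high arrays, against 3.57 in Bay-0 and 4.19 in Ler-0, a gap of 2.73 (6.63-fold). AT2G01090 encodes the hinge protein of the mitochondrial cytochrome bc1 complex, which joins its cytochrome c binding parts. It was at 8.53 to 11.50 (median 11.35) on the high arrays, against 6.09 in Bay-0 and 5.57 in Ler-0. The high side of AT2G01090 was itself divided, with Fe-1 at 8.75, 8.53 and 8.59, Van-0 at 10.09 and Nw-0, Col-0 and Ts-1 between 11.35 and 11.50. AT5G44630, a synthase of sesquiterpenes, was instead high in Bay-0 at 7.95 and Ler-0 at 7.92, against 4.35 to 5.35 (median 4.71) on the other 9 arrays. Both smaller-side accessions had 1 array each, so these gaps have no replicate on that side.

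Ler-0 and Col-0 stood apart in AT1G23960 and in 252415_at and 253865_at, both unlisted. 252415_at had 11.38 in Ler-0 and 10.89, 10.41 and 11.41 in Col-0, against 4.45 to 7.19 (median 5.01) on the other 7 arrays, a gap of 3.72 or 13.1-fold. Here Ts-1 at 6.80 and Van-0 at 7.19 lay between the extremes. AT1G23960 was at 8.69 in Ler-0 and 8.85, 8.62 and 8.93 in Col-0, against 3.95 to 6.14 (median 4.16) in the rest, with Nw-0 alone at 6.14. In 253865_at the direction was reversed. It was at 7.56 to 8.03 (median 7.85) on the 7 arrays of the other accessions, against 4.51 in Ler-0 and 4.66, 4.79 and 4.67 in Col-0.

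A single probe set divided the accessions exactly by ZLL dependency. It is assigned to both AT5G17110 and AT5G17100, and its type can bind transcripts of several genes. Its signal was 9.92 to 10.63 (median 10.26) on the 6 ZLL-dependent arrays, against 6.08, 6.30 and 6.66 in Col-0, 6.69 in Ts-1 and 6.29 in Van-0. Averaged over accessions, the signal was 10.30 in the 4 ZLL-dependent and 6.44 in the 3 ZLL-independent ones. The accession means spread over 0.28 and 0.40 log2 units within these sides, and the gap between the nearest accession means was 3.50 (11.3-fold). Its grouping was 1 of the 18 that occurred once. The count of such probe sets was 0 without the types that may cross-hybridise. It was 5 without the Van-0 array and 2 without Nw-0, but leaving out an accession makes the division easier to meet. Of those added without Van-0, AT5G49440, AT5G20450 and AT5G15360 had Van-0 on the side of the ZLL-dependent accessions, at 6.08, 4.01 and 10.36.

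The widest gap belonged to a probe set shared by AT1G25097, AT1G24996 and AT1G24822, which cannot be assigned to any of these loci. It was high in Fe-1, Ler-0, Col-0 and Ts-1 at 10.76 to 12.46 (median 11.31, 8 arrays), against 5.03 in Bay-0, 4.66 in Nw-0 and 4.50 in Van-0, a gap of 5.86 or 58.1-fold. AT5G49500, a subunit of the signal recognition particle that guides nascent proteins to the endoplasmic reticulum, had the same grouping. It was at 7.88 to 10.14 (median 8.31), against 4.84 in Bay-0, 5.15 in Nw-0 and 4.90 in Van-0. Its high side had a step of 1.76, with the Fe-1 arrays at 10.04, 10.14 and 9.98 above Ler-0, Col-0 and Ts-1.

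Fe-1 and Col-0 alone were high in AT2G04380 and AT3G58730, the only grouping whose smaller side is measured by replicate arrays throughout. AT2G04380 had 9.78, 9.71 and 9.76 in Fe-1 and 9.91, 9.85 and 9.69 in Col-0, against 5.39 in Bay-0, 3.996 in Ler-0, 4.06 in Nw-0, 4.13 in Ts-1 and 4.13 in Van-0. The gap was 4.36 (20.6-fold). AT3G58730 encodes subunit D of the vacuolar ATPase, the pump that acidifies vacuoles and the Golgi. It was at 11.01, 10.93 and 10.72 in Fe-1 and 11.13, 11.05 and 10.87 in Col-0, against 7.94 in Bay-0, 6.38 in Ler-0, 5.22 in Nw-0, 5.87 in Ts-1 and 6.45 in Van-0. Its low side spread over 2.72 log2 units, so Bay-0 was intermediate.

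Of the other 4 groupings with 2 probe sets, 3 set a pair of accessions apart and 1 parted 3 accessions from 4. Bay-0 and Nw-0 were low in AT1G11280, an S-locus lectin receptor kinase, and in 265967_at. AT1G11280 was at 10.02 to 10.48 (median 10.16, 9 arrays), against 5.97 in Bay-0 and 5.53 in Nw-0, a gap of 4.05 (16.5-fold). Bay-0 and Fe-1 were low in AT3G57470, a peptidase of the insulinase type, and high in 248810_at. AT3G57470 was at 7.16 to 7.75 (median 7.63, 7 arrays), against 4.16 in Bay-0 and 3.96, 3.90 and 3.91 in Fe-1. Ler-0 and Ts-1 were low in 255257_at, at 13.47 to 13.81 (median 13.67) on the high arrays the brightest of the 48, and in the probe set of AT5G50665 and AT5G50565. Bay-0, Fe-1 and Col-0 were high in AT3G19515 and 246394_at, with gaps of 2.74 and 2.91.

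By roles read after the values were seen, 3 of the probe sets whose grouping occurred once belong to leucine-rich repeat or resistance genes. The share of such genes over all probe sets could not be counted, so whether they are frequent among the 48 was not tested. AT3G43740, a leucine-rich repeat protein, had 9.17 in Bay-0, 9.99, 9.80 and 9.78 in Col-0 and 9.88 in Van-0, against 3.44 to 3.75 (median 3.59) on the 6 arrays of Fe-1, Ler-0, Nw-0 and Ts-1. Its gap of 5.42, or 42.9-fold, was the widest of any probe set with 1 gene, and its low side was the lowest of all 48. AT5G45500, also a protein with leucine-rich repeats, read 9.28 in Nw-0, 8.81, 9.07 and 9.02 in Col-0 and 8.67 in Van-0, against 4.43 to 4.73 (median 4.59) in Bay-0, Fe-1, Ler-0 and Ts-1. The probe set of AT1G59124 and AT1G58807, near-identical resistance genes of the CC-NBS-LRR class, ran from 9.13 to 10.64 (median 10.20) in Bay-0, Ler-0, Col-0 and Van-0, against 5.26, 5.22 and 5.38 in Fe-1, 4.74 in Nw-0 and 6.29 in Ts-1.

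Other single groupings held genes of general cell functions. AT2G22425, a subunit of the signal peptidase, was at 10.27 to 10.90 (median 10.69, 7 arrays), against 5.95, 5.85 and 5.46 in Fe-1 and 6.68 in Ler-0, a gap of 3.59. AT1G12400, a small subunit of the transcription and repair factor TFIIH, was at 9.60 to 10.07 (median 9.81), against 6.56 in Ler-0 and 6.90 in Nw-0. AT1G58025, a bromodomain protein, was high only in Fe-1 at 8.86, 8.64 and 8.73 and Nw-0 at 9.72, against 5.23 to 5.96 (median 5.49) on the other 7 arrays. AT5G39130, a germin-like protein, was at 7.50 to 9.80 (median 8.54) in 5 accessions, against 3.997 in Ts-1 and 4.40 in Van-0. The Col-0 replicates of AT5G39130 were at 7.50, 8.54 and 7.98, the widest Col-0 range of the 48.

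For the last loci no role is given. AT2G13550 was at 10.22 to 11.75 (median 10.93) on the 8 arrays of Fe-1, Ler-0, Col-0 and Van-0, against 5.44 in Bay-0, 5.64 in Nw-0 and 5.19 in Ts-1, a gap of 4.78 (27.4-fold). AT5G26970 was at 9.85 in Bay-0, 10.21, 9.87 and 9.83 in Fe-1 and 10.13 in Ler-0, against 5.40 to 5.90 (median 5.68) on the other 6 arrays. Of the ZLL-dependent accessions, Nw-0 alone was low in AT5G26970, at 5.48. The pseudogene AT4G11710, whose probe set may cross-hybridise, was low in Bay-0 at 4.49 and Ts-1 at 4.48. The other probe sets with a grouping of their own were AT3G47680, AT3G44430, AT1G68080, AT3G26800, 266097_at, 251548_at and 250620_at, with gaps from 2.59 in AT1G68080 to 3.59 in 250620_at.

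Replicate arrays lay close together on their side. The range over the 3 Col-0 arrays had a median of 0.22 log2 units among the 48 (highest 1.04), and that over the 3 Fe-1 arrays a median of 0.23 (highest 1.25, in 250620_at). Over all probe sets the medians were 0.20 in Col-0 and 0.18 in Fe-1. Between the nearest single arrays of the sides the distance was at least 2.5 in 44 of the 48, and the smallest was 2.28. The rule already required 2.5 between accession means, and 5 accessions have 1 array. This distance was thus largely set by the choice of probe sets. The rule was also applied with 1 replicate each of Col-0 and Fe-1, in all 9 ways, and the other replicates were then read. It chose 45 to 51 probe sets, of which 44 to 48 were among the 48, and from 98.5% to 100% of the unused values fell on the side of their own accession. The misses were all in 246884_at, 247095_at and 262119_s_at, none of which is among the 48. The 5 accessions with 1 array had no second one to read, so the same arrays of theirs entered every choice. Replicate ranges had medians of 0.20 and 0.18 over all probe sets, against a required gap of 2.5. A share near 100% was thus nearly fixed in advance. It describes the spread between replicates and does not test the groupings.

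Genes beside the on-off genes mostly did not share their pattern, although a larger share of them did than of all other probe sets. For the 33 probe sets with 1 gene, the 5 nearest measured genes on each side were compared between the same high and low accessions, leaving out other on-off genes. Of 331 neighbouring probe sets, 8 were higher by at least 1 log2 unit on the high side (2.42%) and 0 were lower by as much, with a median difference of 0.00. With all other probe sets compared in the same way between the sides of each of the 33, groupings shared by several of them being counted repeatedly, 0.55% were higher and 0.455% lower by at least 1. Of the 66 nearest neighbours 4 were higher (6.06%). No test was made of these shares, because neighbours of several genes share the same arrays and groupings. Some neighbours were near background on both sides, such as AT3G43750 beside AT3G43740 at 3.82 and 3.76, and could hardly show a difference.

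AT4G19510, the resistance gene RPP2B, lies next to AT4G19500 and had the largest difference among the neighbours. Its mean was 7.37 in Bay-0, Nw-0 and Col-0 and 4.62 in Fe-1, Ler-0, Ts-1 and Van-0, a difference of 2.75, and the sides did not overlap. RPP2A and RPP2B, which are known to act together against downy mildew, were thus high and low in the same accessions. AT4G19520, the next gene of the cluster, differed by 0.38. AT5G56370, another F-box gene next to AT5G56380, averaged 6.87 in the high accessions and 4.82 in the low ones, a difference of 2.05. AT5G45480 near AT5G45500 averaged 8.37 and 6.95 between the same sides, and AT1G11270 near AT1G11280 averaged 8.40 and 6.97. The others were AT2G04420 near AT2G04380 with a difference of 1.79, AT5G44520 with 1.66, CCL with 1.39 and AT2G22340 with 1.12. CCL overlapped between the sides, and AT5G44520 is 31 genes away from AT5G44630.

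**Figure D4:**
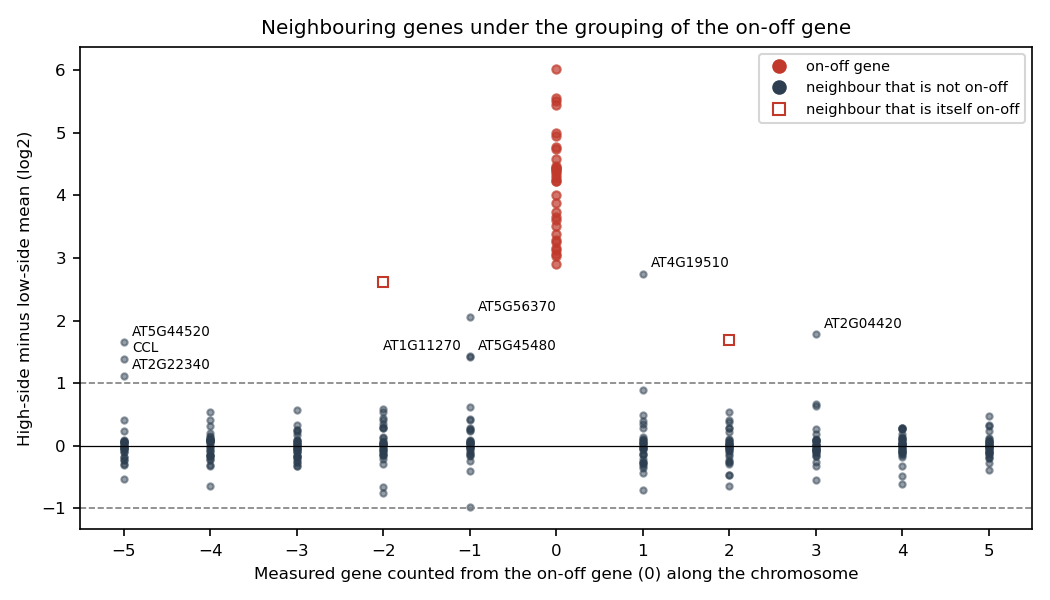
Difference between high-side and low-side accession means (log2) for the 33 on-off genes at 0 and for the measured genes to each side of them, counted along the chromosome. Dashed lines mark 1 log2 unit in either direction; 8 of 331 neighbours lie above the upper line, none lies below the lower one, and open squares are neighbours that are on-off genes themselves.

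Of the 33 on-off probe sets with 1 gene, only AT5G49440 and AT5G49500 lay within 10 genes of each other, 8 genes apart on chromosome 5. The 4 with several genes and the 11 not listed were given no position, so pairs that include them could not be found. Their groupings differed, since both were high in Col-0 and Ts-1 but AT5G49500 was also high in Fe-1 and Ler-0.

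Where an on-off gene has a sister copy or partners in its complex, these mostly did not follow it, in a list of 15 genes with 16 probe sets drawn up after the values were seen. For the ribosomal protein P0, AT3G09200 was at 13.48 to 13.66 and AT3G11250 at 9.96 to 10.41 in all accessions, and between the sides of AT2G40010 their means were 13.57 against 13.57 and 10.24 against 10.18. Another hinge protein gene, AT1G15120, was at 11.66 to 12.08 and differed by 0.01 between the sides of AT2G01090. AT1G48900, another gene of this signal recognition particle subunit and the only one read here, was at 11.65 to 11.88 and differed by -0.01. The sister copies read were thus about as bright in the low accessions as in the high ones.

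**Figure D5:**
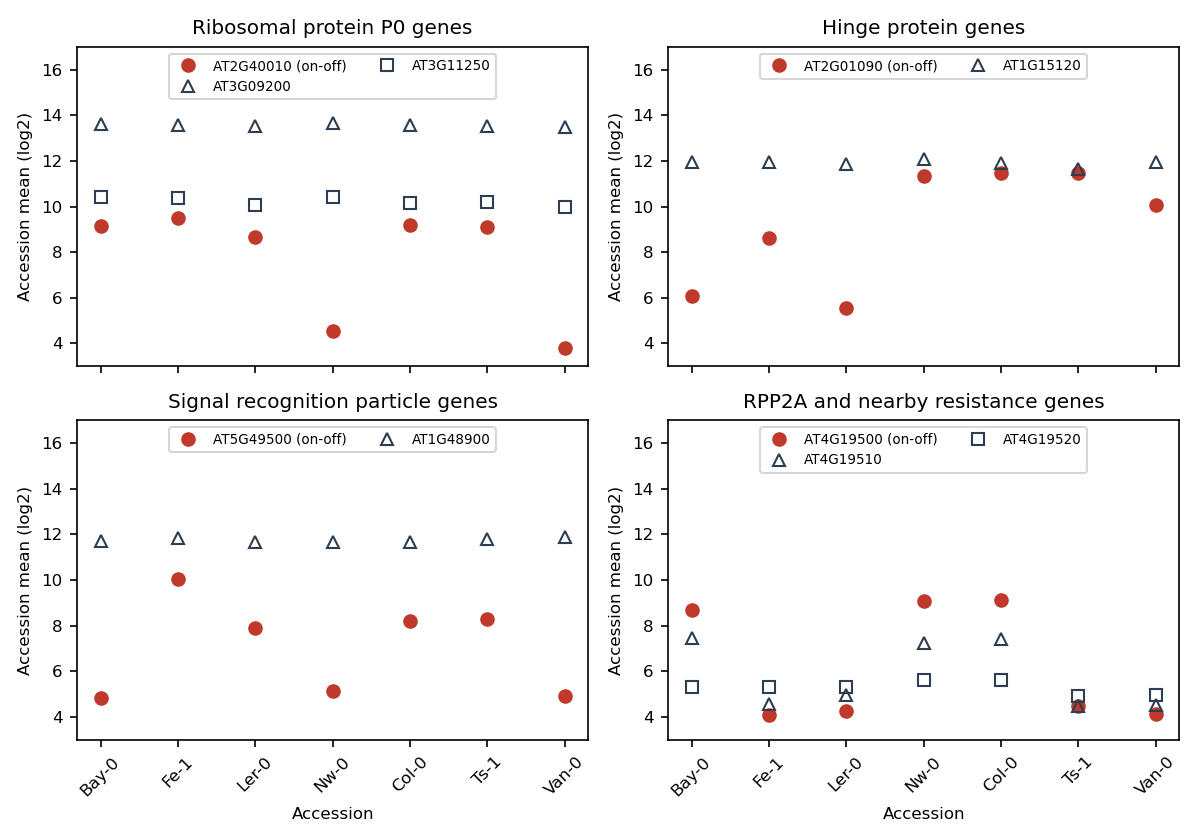
Accession means (log2) of 4 on-off genes, filled circles, and of related genes, open symbols, with ZLL-dependent accessions left of ZLL-independent ones. Sister copies of the P0, hinge and signal recognition particle genes form nearly level rows, between 9.96 and 13.66, whereas AT4G19510 is high and low in the same accessions as AT4G19500.

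Partners and family members gave small differences too. Subunits a of the vacuolar ATPase differed between the sides of AT3G58730 by -0.17 in VHA-A1, -0.17 in VHA-A2 and 0.01 in VHA-A3. The SUMO ligase SIZ1, read by a pair of probe sets, differed by 0.17 and -0.07 between the sides of SAE1A. The lectin kinase genes AT1G11330 and AT1G11340 near AT1G11280 differed by -0.17 and 0.09, and the cysteine-rich secretory genes AT3G22020, AT3G22040 and AT3G22050 near AT3G22060 by -0.05, -0.04 and -0.03. Accession means ran from 4.14 to 4.48 in AT1G11340 and from 4.12 to 5.17 in these secretory genes. Such levels are near or below the lower quartile of the arrays, where a difference could hardly show. Of the 16 probe sets, only AT4G19510 differed by at least 1. Among all other probe sets, compared between the sides of the 33 on-off genes, 0.55% were higher and 0.455% lower by as much. A difference below 1 is thus what most probe sets show.

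A second probe set of the same gene existed for AT3G19515 only. The on-off probe set differed by 3.61 between Bay-0, Fe-1 and Col-0 and the other accessions, whereas the second one was at 4.13 to 4.85 in all 7 accessions, at or below the lower quartile of the arrays, and differed by 0.37.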

How the data were processed

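Torpedo-stage embryos of 7 accessions were measured on 11 Affymetrix ATH1 arrays. The authors used RMA (background correction, equalised array distributions, 1 summary per probe set) and deposited the log2 values. The chip definition and the version of RMA were not given in the sources used here. Since all arrays are brought to one distribution, a level is relative to its array, and signals near background are compressed. All 11 array columns were used (0 left out), and 64 chip controls were removed.

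Accession means, sorted gaps and sides were computed with Python 3.11.15, numpy 2.4.6 and pandas 2.3.3. The code of the rule was run on simulated data with planted steps, which checks the code and not the groupings found here. The members, the gene lists and the related genes were chosen with earlier results of these data known. No differences were tested, because the selection used every array. Precision is limited by the number of arrays, which is 1 for 5 of the accessions. Gene names came from the platform annotation, updated by locus through a RefSeq gene table (TAIR10.1), and coordinates were used only for neighbour order. Named probe sets are the 10 widest gaps with 1 gene, the widest 3 of each recurring grouping, those at the threshold, the one that follows ZLL dependency, and others named after their values were seen. A planned grouping by gene class could not be made, since 1 of 33 matched genes has a worded name. Alternatives changed the gap, the summary of replicates, the normalization, the floor on low values, and the arrays and accessions included.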

Additional observations from a re-analysis of the deposited data

How the results depend on the processing

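No paired analysis was possible because the labels do not pair the arrays of different accessions. The probe sets come from a selection rule and not from a test, and only Fe-1 and Col-0 have more than 1 replicate. The count of 48 became 81 with a gap of at least 2 and 28 with a gap of at least 3. It stayed between 41 and 49 under the other 18 alternatives, with 37 to 42 of the 48 kept when an accession with a single array was left out. The share with Col-0 high ran from 75.3% to 82.1% over the alternatives. The number of groupings, 30, was 42 at a gap of 2, 21 at a gap of 3 and 27 to 31 under the others that kept all 7 accessions. At a gap of 2, the groupings of Col-0/Ts-1 and Ler-0/Col-0 held 7 and 5 probe sets. At a gap of 3, those of Bay-0/Ler-0 and Ler-0/Col-0 held 0 and 1, and with the nearest single arrays that of Bay-0/Ler-0 held 1.

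The count divided by ZLL dependency, 1, was 0 without probe sets that may cross-hybridise. Leaving out single replicates or accessions gave counts from 1 to 5. It was 2 without Nw-0, where AT5G26970 joined, and 5 without Van-0, where AT5G49440, AT5G20450, AT5G15360 and AT3G61010 joined. With all accessions, Nw-0 stood on the ZLL-independent side in AT5G26970. Van-0 stood on the ZLL-dependent side in AT5G49440, AT5G20450 and AT5G15360. Those genes thus do not divide all 7 accessions by ZLL dependency. The count was also 5 when Van-0 and Fe-1 replicates 2 and 3, the arrays with the most BAN, were left out. Of the unused values in the replicate check, 99.0% kept their side when replicate 1 of both accessions was used. The share was 100% with Fe-1 replicate 3 and Col-0 replicate 2 or 3. As above, these shares describe the spread between replicates and do not test the groupings. Probe sets near background have compressed differences, and with values below the lower quartile raised to it 42 of the 48 remained.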

Other observations

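A further 86 probe sets had a gap of at least 2.5 log2 units with 1 accession alone on a side, which brings all probe sets with such a gap to 134. In 56 of the 86 the lone accession was high and in 30 it was low. Ler-0 was the lone high accession in 35 of the 56, followed by Col-0 in 7, Bay-0 in 5, Ts-1 in 4, Fe-1 in 3 and Nw-0 and Van-0 in 1 each. The lone low accession was Ts-1 in 8, Ler-0 in 7, Fe-1 in 5, Bay-0 in 4, Nw-0 and Van-0 in 3 each and Col-0 in 0. All accessions but Fe-1 and Col-0 were measured by 1 array, so a lone value of theirs has no replicate.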
